A study of Mus musculus with 8 samples.

Results

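The Myc, Max and Mxd network was read in tumours that grew from the mouse mammary carcinoma line 4T1. Its 10 genes are Myc, Mycn and Mycl1 (now Mycl), which encode the Myc proteins, Max, their shared partner, Mxd1, Mxd3, Mxd4, Mxi1 and Mnt, which encode the repressors that compete for Max, and Mlx, which encodes a protein related to Max. Members were found through the RefSeq accession that the array files give for each probe, and every probe was kept. This gave 12 probes for the 10 genes, out of 55681 probes and 20145 named genes on the array. Mxd1 and Mxd4 had 2 probes each and the other 8 genes had 1.

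The proteins of this network share a basic helix-loop-helix leucine zipper and bind DNA as dimers at the E-box, CACGTG. Myc with Max activates genes of growth, ribosome production and division, and the Mxd proteins, Mxi1 and Mnt with Max recruit Sin3 and histone deacetylases to the same sites and repress. Mlx takes the place of Max as the partner of the glucose-sensing Mondo proteins, encoded by Mlxip and Mlxipl. High Myc is common in breast carcinoma, and most Mxd genes are typically induced as cells stop dividing.

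Both groups of 4 tumours came from 4T1 cells held for 24 h with an adenovirus at a multiplicity of infection of 50 and then injected into the fat pad of BALB/C females aged 6 to 8 weeks. The control virus was empty and the other carried PRH, the homeodomain transcription factor encoded by Hhex, and the series set out to find the genes that differ in tumours overexpressing it. Tumours were harvested on day 22, each group holds mouse numbers 1, 2, 3 and 5, and the labels do not say what a shared number stands for. Each tumour was read on 1 single-colour (Cy3) Agilent array. The labels name whole tumours in one place and endothelial isolates in another as the source of the RNA. P-values measure the spread between these 8 samples.

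Hhex itself was lower on the arrays labelled PRH by probe A_52_P528600, and whether this probe reads the PRH carried by the virus was not tested. The means were -0.58 ± 0.20 for control tumours and -1.67 ± 0.14 for the others (SD, n = 4 each). They differed by -1.09 (SE 0.148, limma adjusted p = 0.00674), so the tumours are called PRH-labelled and each direction below is that of the label. These values, and all levels below, are log2 of the background-corrected spot intensity relative to the 75th percentile of the same array. That percentile ran from 1003 to 1283 intensity units in control and from 679.1 to 761.5 in PRH-labelled tumours, so a level can rise while the raw signal falls. The groups also differed in the first of the numbers that give an array's place on the slide, and that place cannot be told apart from the group. Of 62 tested genes that mark 12 cell types, 3 were higher and 4 lower, 4.84% and 6.45%, against 10.7% and 13.1% of all named genes by their brightest probe. A summed level is log2 of the sum of a list's linear values. The summed level of the 8 epithelial markers, of which Krt18 and Krt8 were the brightest, was 8.24 to 8.59 in control and 8.66 to 9.03 in PRH-labelled tumours, without overlap, and that of the 9 endothelial markers, led by Kdr and Cldn5, was 3.31 to 4.69 and 4.53 to 4.91, with overlap. Of the epithelial markers Krt18 rose by 0.52 (adjusted p = 0.026) and Krt14 by 1.93 (adjusted p = 0.0188), while Krt8 stood at -0.44 (adjusted p = 0.0763). Krt18, with mean levels of 7.60 in control and 8.13 in PRH-labelled tumours, weighs most in the epithelial sum. Every marker of both lists was well above background on all 8 arrays. The summed level of 5 keratinocyte markers was -0.25 to 4.11 in control and 0.55 to 5.19 in PRH-labelled tumours, with overlap. Their median difference was 2.81, and 0 of the 5 passed. In bulk samples fewer cells of a type and less RNA per cell cannot be told apart. The 6 tested markers of dividing cells, led by Pcna and Mki67, had a median difference of -0.605, and 1 passed. This was Cdk1, lower by its brightest probe at -1.63 (adjusted p = 0.0122), with other probes at 0.82 and -0.71. Of 5 tested macrophage markers 2 were lower and 0 higher. The part of the epithelial, keratinocyte, dividing cell and macrophage differences in the values below was not tested.

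The next 4 stretches of 60 bases show where the network's own binding sequence lies in its own promoters, with CACGTG in capitals. They come from RefSeq windows of build GRCm38.p6 that span 250 bases before to 50 bases after a gene's start. Such windows matched 9 of the 10 members, 11 windows in all, and Myc had none.
Max, chr12:76962219-76962278, minus strand: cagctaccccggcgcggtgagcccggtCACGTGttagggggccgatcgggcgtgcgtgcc
Mlx, chr11:101087223-101087282, plus strand: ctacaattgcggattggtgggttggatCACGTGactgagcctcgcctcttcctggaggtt
Mnt, chr11:74830774-74830833, plus strand: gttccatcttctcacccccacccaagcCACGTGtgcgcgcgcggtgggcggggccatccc
Mxd4, chr5:34187897-34187956, minus strand: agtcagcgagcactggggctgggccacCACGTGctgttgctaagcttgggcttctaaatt

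The motif began 3 bases before the start of Max, 40 before that of Mlx, 123 before that of Mnt and 219 before that of Mxd4. CACGTG reads the same on both strands. It was present in 4 of the 9 members with a window, 44.4%, against 8.09% of all 27025 genes with one and 7.15% of all 32851 windows of 300 bases. The related sequence CACGCG, searched on both strands, occurred in 1 member, Mycl1, against 10.5% of genes with a window and 9.27% of all windows. These are matches of letters and were not measured as binding here.

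In PRH-labelled tumours, 2 of the 11 tested member probes were higher, those of Mnt and Mxi1, and 2 were lower, those of Mlx and 1 probe of Mxd1. Differences were fitted with limma over the 39463 probes that stood well above background on 4 or more arrays, with Benjamini-Hochberg adjustment and a threshold of 0.05. Over all tested probes 26.2% passed, 16.1% higher and 10.1% lower. The 4 calls of 11 make 36.4%, with few probes behind that share. Mxi1 was well above background on every PRH-labelled array but on only 2 control arrays, so it met the filter through the group where it was high, and without it 3 of 10 probes passed. Groups did not overlap for 3 of 11 probes, 27.3%, 1 higher and 2 lower, against 31.5% of all tested probes, 18.8% higher and 12.7% lower. The median difference of the 11 probes was 0.10, against 0.22 for all. The calls are therefore given gene by gene.

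**Figure D1:**
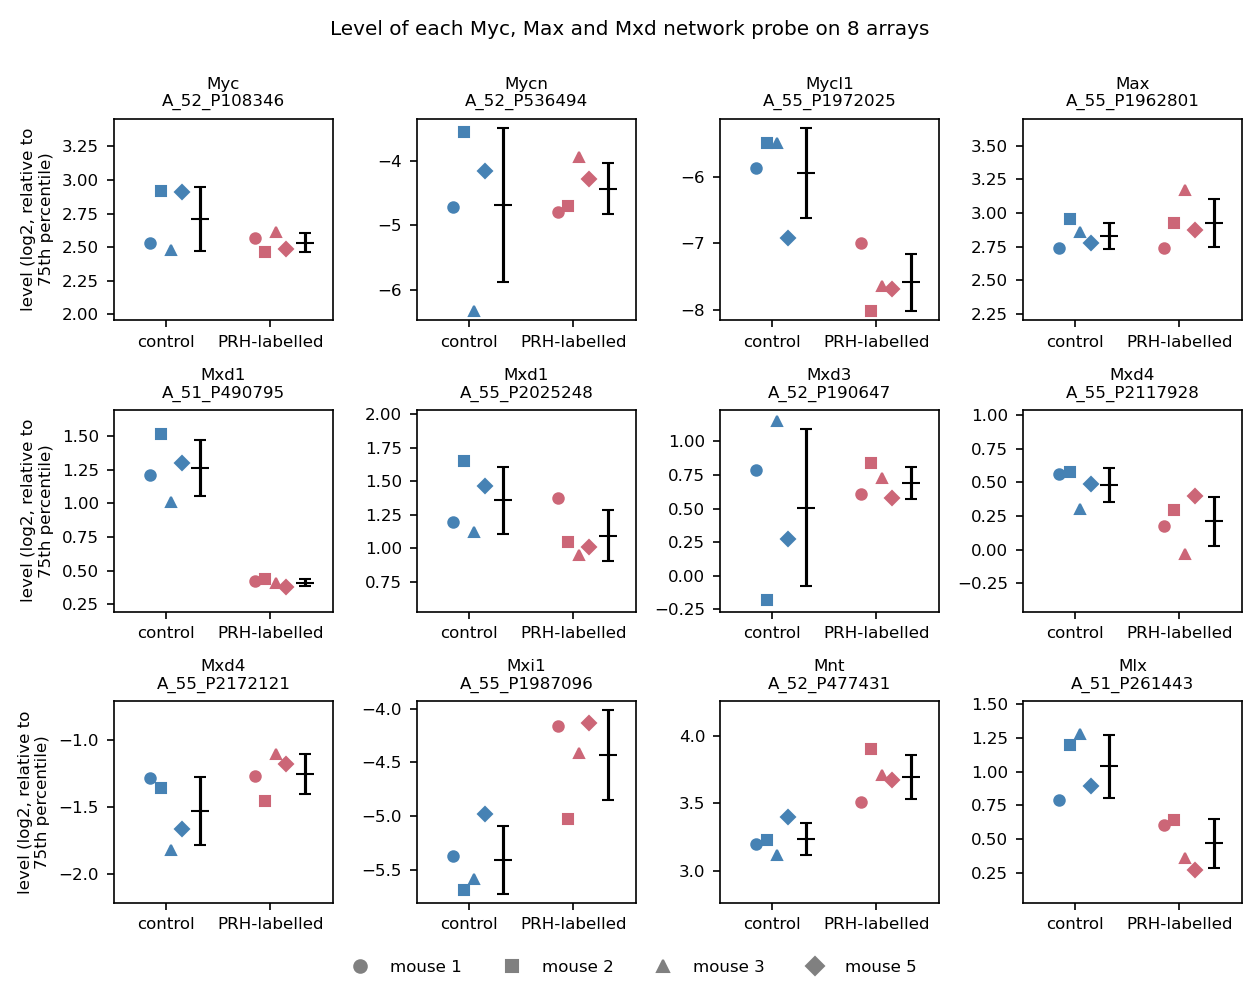
Level of each of the 12 member probes (log2 relative to the 75th percentile of the array) in 4 control and 4 PRH-labelled tumours. Each symbol is 1 array with its shape giving the mouse number, bars are mean ± SD, and the range of the vertical axis differs between panels. One Mxd1 probe, Mnt and Mlx show no overlap between groups, as does Mycl1, whose 8 readings all lay near background.

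Myc, the transcription factor that drives growth and division, was read by 1 probe (A_52_P108346, NM_010849) at 2 spots, whose signals differed by 1.06 to 1.19 times on an array. Its level was 2.53, 2.92, 2.48 and 2.91 in control mice 1, 2, 3 and 5, and 2.57, 2.46, 2.62 and 2.49 in the PRH-labelled tumours. Controls 2 and 5 stood above all other tumours, and the other controls lay among the PRH-labelled ones. The means were 2.71 ± 0.24 and 2.53 ± 0.07 (SD, n = 4 each), a difference of -0.18 (SE 0.149, limma adjusted p = 0.404). Myc was lower in 2 of the 4 same-numbered pairs. Its sign was negative in each of 5 scalings and it passed in 1 of them, median centring, at -0.64 (adjusted p = 0.0423).

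Mycn, a Myc gene best known from the nervous system and neuroblastoma, was dim (A_52_P536494, NM_008709). Its level was -4.71, -3.55, -6.32 and -4.15 in control and -4.80, -4.71, -3.94 and -4.29 in PRH-labelled tumours. Control 3 was the lowest and the only array on which the probe was not well above background. The difference was 0.25 (SE 0.562, adjusted p = 0.756). Its sign was negative in 3 of 5 scalings and without control 3, at -0.30. Mycl1, the Myc gene first found in lung carcinoma, was not well above background on any of the 8 arrays (A_55_P1972025, NM_008506). Its raw signal lay between 2.92 and 28.5 intensity units, and no difference is given.

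Max, the shared partner of the Myc and Mxd proteins, did not pass (A_55_P1962801, NM_008558). It was read at 2.74, 2.96, 2.86 and 2.77 in control and at 2.74, 2.93, 3.17 and 2.87 in PRH-labelled tumours, with overlapping groups. The difference was 0.10 (SE 0.135, adjusted p = 0.616), and it was negative after median centring alone of the 5 scalings, at -0.37.

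Mxd1, a repressor induced when cells leave the cycle and differentiate, was lower by one of its probes. Probe A_51_P490795 (NM_010751) stood at 1.21, 1.51, 1.01 and 1.30 in control and at 0.42, 0.44, 0.41 and 0.38 in PRH-labelled tumours. The PRH-labelled values lay close together (SD 0.027, against 0.21 in control) and below every control. The difference was -0.85 (SE 0.137, adjusted p = 0.00735), or 1.80-fold. It passed in each of the 5 scalings, from -0.77 to -1.31, and with the mouse number as a replicate block (adjusted p = 0.0136). Leaving out any 1 array kept it (adjusted p 0.00492 to 0.0265). Of the settings tried it was lost when arrays were centred on spike-in probes, at -0.98 (adjusted p = 0.204), where 3 of all probes passed. The tested probes of like brightness, bin 8 of 10 counted from the dimmest, had a median difference of -0.16.

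The other Mxd1 probe, A_55_P2025248, carries the same accession and gave a smaller difference. It stood at 1.19, 1.65, 1.12 and 1.46 in control and at 1.37, 1.05, 0.95 and 1.01 in PRH-labelled tumours. PRH-labelled tumour 1 lay among the controls. The difference of -0.26 (SE 0.170, adjusted p = 0.289) did not pass, and only median centring brought it past, at -0.73 (adjusted p = 0.0403). Both probes were lower in sign in each of the 5 scalings, and which transcripts of Mxd1 each reads was not tested.

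Mxd3, the member of the Mxd family that is expressed in S phase, was the most spread of the well-measured members in control (A_52_P190647, NM_016662). It was read at 0.79, -0.18, 1.15 and 0.27 in control and at 0.61, 0.84, 0.73 and 0.58 in PRH-labelled tumours. The PRH-labelled values all fell inside the range of the controls, and the difference was 0.18 (SE 0.282, adjusted p = 0.652). It turned negative after median centring, at -0.29.

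Among controls Mxd3 ran opposite to Myc and Mxd1. Controls 2 and 5, with the higher readings of Myc and of both Mxd1 probes, had the lower readings of Mxd3, and controls 1 and 3 had the reverse. The summed level of 6 tested markers of dividing cells was 5.62, 5.47, 6.66 and 5.85 in controls 1, 2, 3 and 5, so control 3, with the highest Mxd3, was also highest there. In PRH-labelled tumours that sum was 5.30 to 5.53. With 4 controls this is a description of these tumours, and the part of dividing cells in it was not tested.

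Mxd4, another Mxd repressor found in resting and differentiated cells, gave probes of opposite sign. Probe A_55_P2117928 (NM_010753) was read at 0.56, 0.58, 0.30 and 0.49 in control and at 0.18, 0.29, -0.03 and 0.40 in PRH-labelled tumours. It was lower in all 4 same-numbered pairs, but the groups overlapped and the difference of -0.27 (SE 0.142, adjusted p = 0.196) did not pass. It passed after median centring, at -0.74 (adjusted p = 0.0186). The dimmer probe A_55_P2172121, of the same accession, stood at -1.29, -1.36, -1.82 and -1.67 in control and at -1.27, -1.46, -1.11 and -1.18 in PRH-labelled tumours, a difference of 0.28 (SE 0.165, adjusted p = 0.247). Its sign was negative in 2 of 5 scalings.

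Mxi1, a further repressor of the family, was higher on a dim probe (A_55_P1987096, NM_001008542). Its level was -5.37, -5.69, -5.59 and -4.98 in control and -4.16, -5.03, -4.41 and -4.13 in PRH-labelled tumours. It was higher in all 4 same-numbered pairs, but PRH-labelled tumour 2 lay below control 5. The probe was well above background on 2 of 4 control arrays and on 4 of 4 PRH-labelled ones. The difference of 0.97 (SE 0.252, adjusted p = 0.0268) passed. It belongs to the dimmest of 10 bins of brightness, whose 3947 probes had a median difference of 0.87. It passed in 2 of 5 scalings, failed with the authors' values at 0.10 (adjusted p = 0.687) and after quantile normalization at 0.39 (adjusted p = 0.274), and passed when control 1, control 5 or PRH-labelled tumour 2 was left out but not in the other 5 such fits (adjusted p 0.0208 to 0.0729 over the 8).

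Mnt, the repressor that is present in dividing and resting cells alike, was higher relative to the array (A_52_P477431, NM_010813). Its level was 3.19, 3.23, 3.12 and 3.40 in control and 3.51, 3.90, 3.71 and 3.67 in PRH-labelled tumours, so that every PRH-labelled value lay above every control. The difference was 0.46 (SE 0.135, adjusted p = 0.0393), or 1.38-fold. The raw signal did not move that way, with a mean of 10298 intensity units in control and 9456 in PRH-labelled tumours. Mnt passed in 2 of 5 scalings and was level with control after median centring (-0.00087, adjusted p = 0.997). With the mouse number as a replicate block it did not pass (adjusted p = 0.0597), nor in 7 of the 8 fits without 1 array, with only the fit without control 1 keeping it (adjusted p 0.0471 to 0.105 over the 8).

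Mlx, the partner of the Mondo proteins, was lower (A_51_P261443, NM_011550). It stood at 0.79, 1.20, 1.28 and 0.89 in control and at 0.60, 0.64, 0.36 and 0.27 in PRH-labelled tumours. All PRH-labelled values lay below all controls, and the gap was narrowest between control 1 and PRH-labelled tumour 2. The difference was -0.57 (SE 0.166, adjusted p = 0.0395), or 1.49-fold. The tested probes in its bin of brightness, bin 8 of 10 counted from the dimmest, had a median difference of -0.16. Mlx passed in all 5 scalings, from -0.52 to -1.04. It did not pass with the mouse number as a replicate block (adjusted p = 0.0524), without the filter on dim probes (adjusted p = 0.0585), nor in 7 of the 8 fits without 1 array, with the fit without control 1 alone keeping it (adjusted p 0.0206 to 0.104 over the 8).

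**Figure D2:**
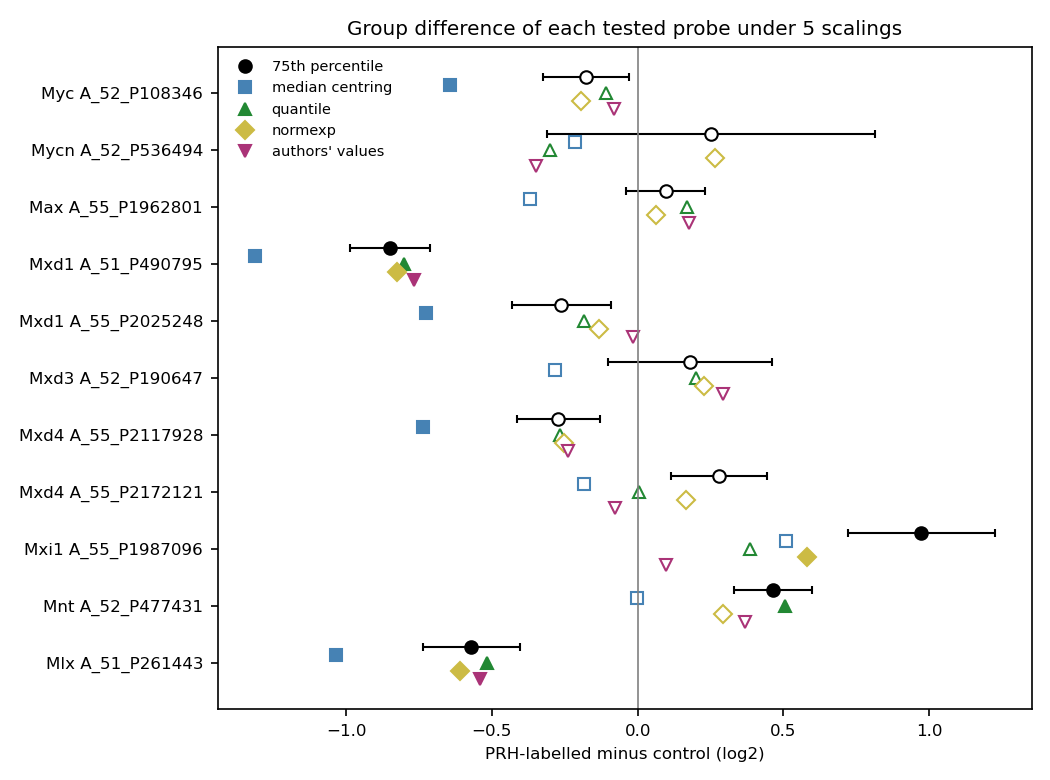
Difference between PRH-labelled and control tumours (log2) for the 11 tested member probes under 5 scalings, with filled symbols where the limma adjusted p was under 0.05 and bars of 1 SE on the 75th percentile values. One Mxd1 probe and Mlx are filled in all 5, while Mnt and Mxi1 are filled in 2 of 5, and median centring moves every probe to the left.

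A difference between 2 members on the same array does not move with a constant that scales the whole array, so 7 such differences were compared between the groups. The zero of each depends on the probes and has no meaning of its own. Myc minus Mnt was -0.66, -0.31, -0.64 and -0.49 in control and -0.94, -1.44, -1.09 and -1.18 in PRH-labelled tumours, with no overlap. The mean moved by -0.64, and by -0.45 to -0.64 over the 5 scalings. Myc minus Mxi1 moved by -1.15, and by only -0.18 in the authors' values, but the Mxi1 probe was near background on 2 control arrays, so its lack of overlap is not read as a difference. Mlx minus Max moved by -0.67 with no overlap, from -1.79 ± 0.16 to -2.46 ± 0.30 (SD, n = 4 each). For comparison, 26% of all named genes set against Myc in this way, and 32% of those set against Max, had groups that did not overlap.

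The remaining differences overlapped between the groups by the brightest probe of each gene. Myc minus Max was -0.12 ± 0.22 in control and -0.40 ± 0.16 in PRH-labelled tumours. Myc minus Mxd1, by the brighter Mxd1 probe, was 1.35 ± 0.08 and 1.44 ± 0.19. By the other Mxd1 probe, the one that was called, it did not overlap, at 1.32, 1.41, 1.47 and 1.61 in control and 2.14, 2.02, 2.21 and 2.11 in PRH-labelled tumours. That mean moved by 0.67, and by 0.63 to 0.69 over the 5 scalings, so the result for this pair depends on the Mxd1 probe. Myc minus Mxd4 was 2.23 ± 0.20 and 2.32 ± 0.25. Myc minus Mxd3 was 2.20 ± 0.81 in control and 1.85 ± 0.15 in PRH-labelled tumours, with controls 2 and 5 the high ones.

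**Figure D3:**
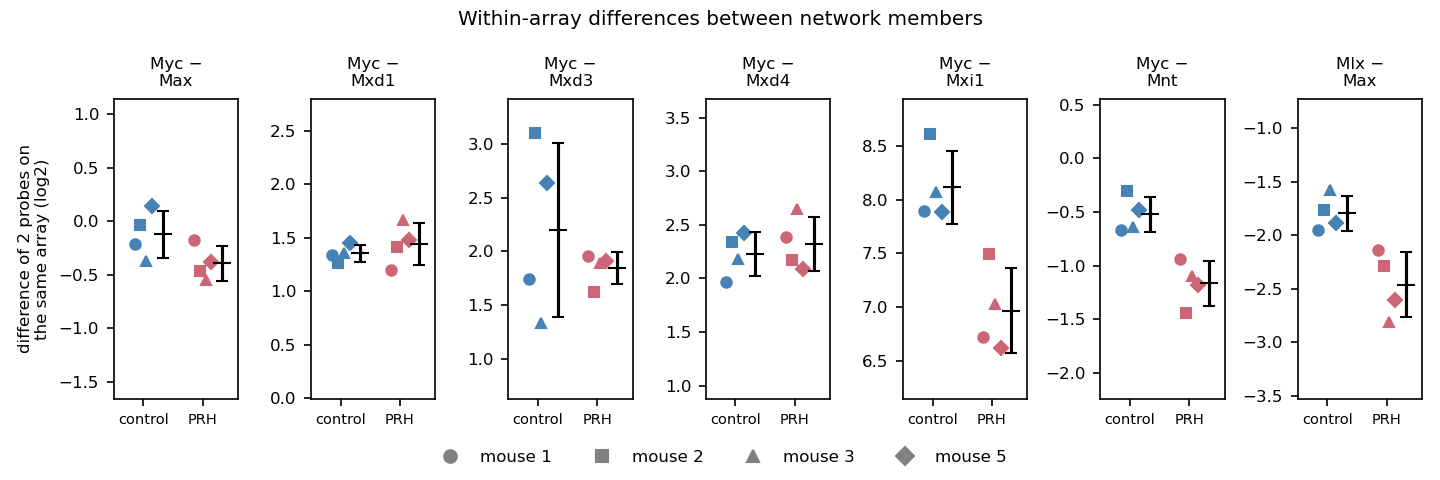
Difference between the brightest probes of 2 members on the same array (log2) in 4 control and 4 PRH-labelled tumours, with symbols giving the mouse number and bars the mean ± SD. Myc minus Mxi1, Myc minus Mnt and Mlx minus Max do not overlap between groups, with Mxi1 near background on 2 control arrays, and Myc minus Mxd3 is widely spread in control. Each axis spans the same number of log2 units.

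The genes whose readings most resembled that of Myc were Bbs2, Il23a, Prkra, Gcnt2 and Thbs1, with Pearson r of 0.985, 0.979, 0.972, 0.962 and 0.962 over the 8 arrays, out of 16376 named genes. These are the highest of that many values over only 8 arrays, so they are a description, and chance was not tested. The arrays share a slide and a scaling, and none of these 5 genes passed between the groups (adjusted p 0.147 to 0.385).

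Genes that work with or under the network were counted in 7 lists, using the brightest tested probe of each gene. Of 108 tested genes 5 rose and 23 fell in the PRH-labelled group, 4.63% and 21.3%, against 10.7% and 13.1% of all 16377 named genes tested. Their median difference was -0.22, against -0.02 for all named genes. Over all tested probes the difference also varied with brightness. In 10 bins counted from the dimmest, the median was 0.87 in bin 1, -0.16 in bin 8, -0.13 in bin 9 and 0.06 in bin 10. The lists were not matched for brightness, and the part of brightness in their medians and counts was not tested. Of the 28 calls 18 held under each of the 5 scalings, 11 whichever array was left out, 9 in both respects, and 22 with the mouse number as a replicate block. Centring on spike-in probes, which is not among the 5 scalings, kept 0 of the 28, and 3 of all probes passed there. Median centring shifts every difference by -0.465 and so favours falls over rises. All 28 held without control 1, and 10 held in that fit and in no other of the 8, among them Hdac2, Rbbp7, Sap18, Ing2, Actl6a, Ncl, Nop58, Ppat and Pdgfrb.

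Of the Mxd corepressors, 6 of 14 fell and 0 rose by limma, with a median of -0.30. At an unadjusted p under 0.05 the counts were 7 and 0, with 6285 of all 16377 named genes under it in either direction. Sin3a, the scaffold that Mxd proteins bind, had a level of 0.77 ± 0.36 in control and of -0.28 ± 0.13 in PRH-labelled tumours (SD, n = 4 each), a difference of -1.05 (SE 0.198, adjusted p = 0.0101). Control 1, at 0.23, stood below the other controls, at 0.92 to 1.02. This call held in all 5 scalings and all 8 fits without 1 array. Hdac2, a histone deacetylase of the Sin3 complex, differed by -0.86 (adjusted p = 0.0399), Rbbp7, a histone-binding subunit, by -0.72 (adjusted p = 0.0361) and Ncor1, another deacetylase-recruiting corepressor, by -0.43 (adjusted p = 0.0357). Hdac2 did not pass with the replicate block (adjusted p = 0.07), nor did Ncor1 (adjusted p = 0.0506), which held when control 1 or control 3 was left out and in none of the other 6 such fits. The second probe of Rbbp7 stood at 0.01 and that of Ncor1 at -0.81 (adjusted p = 0.0166). Among the 5 scalings Hdac2 was lost with normexp (adjusted p = 0.0501) and Ncor1 after quantile normalization (adjusted p = 0.0898) and in the authors' values (adjusted p = 0.167). Sap18 and Ing2 also fell, Sap18 not with the replicate block (adjusted p = 0.0692), with normexp (-0.18) or in the authors' values (-0.38), and Ing2 not with normexp (-0.06). The close relative Sin3b stood at -0.15, with another probe at 0.35, and Hdac1 at -0.05, with others at 0.27 and -0.40. None of these passed the threshold.

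Of the Myc coactivators 1 of 11 tested genes rose and 2 fell, with a median of -0.21. Kat5, the Tip60 acetyltransferase, went from 2.95 ± 0.12 to 3.93 ± 0.12 (SD, n = 4 each), a rise of 0.98 (SE 0.125, adjusted p = 0.00674), and held in all 5 scalings and all 8 fits without 1 array, but its other probe differed by 0.09. Hcfc1, a host cell factor that binds Myc, fell by 0.89 (adjusted p = 0.0073), with its other probe at 0.36. Actl6a, an actin-like subunit of chromatin complexes, differed by -0.48 (adjusted p = 0.0437), and by the replicate block it did not pass (adjusted p = 0.079).

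Of the genes that set Myc stability and turnover, 1 of 15 tested rose and 2 fell, with a median of -0.32. Trpc4ap, a receptor of a ubiquitin ligase for Myc, was higher by 0.54 (adjusted p = 0.0141), but by 0.08 after median centring (adjusted p = 0.768). Aurka, a mitotic kinase that shields Mycn from degradation, differed by -1.07 (adjusted p = 0.0402). Aurka held when control 1, 2 or 3 was left out and in none of the other 5 such fits, and was lost in the authors' values (adjusted p = 0.0591). Fbxw7, the main ubiquitin ligase receptor for Myc, stood at -0.29 (adjusted p = 0.198), with another probe at 0.22.

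Of 45 genes known to be activated by Myc, 3 rose, 7 fell and 35 did not pass, with a median of -0.19. Cdk4, a kinase of the G1 phase, was higher by 0.72 (adjusted p = 0.00812), with other probes at 0.33 and -0.04. Nop56, a nucleolar protein, was higher by 0.67 (adjusted p = 0.0177, another probe at -0.16) and Cad, of pyrimidine synthesis, by 0.62 (adjusted p = 0.0208). After median centring Cdk4 was at 0.26, Nop56 at 0.21 and Cad at 0.16, none past the threshold, and Cad was also lost after quantile normalization, at 0.33. Slc7a5, an amino acid transporter, fell by 1.14 (SE 0.215, adjusted p = 0.0101), with another probe at 0.81. Tfrc, the transferrin receptor, fell by 0.69 (adjusted p = 0.0178) with its other probe at -0.77, and Tfam, a factor of mitochondrial DNA, by 0.58 (adjusted p = 0.0215). Rrs1, a ribosome assembly factor, differed by -1.04 (adjusted p = 0.0221). Without 1 array, Tfrc was lost when control 5 was left out and Nop56 when control 5 or PRH-labelled tumour 2 was. Cad and Rrs1 held without control 1, control 3 or PRH-labelled tumour 2 or 3, and Tfam without control 1, control 3 or PRH-labelled tumour 3. The other falls were in Ncl (adjusted p = 0.0564 with the replicate block), Nop58 and Ppat, and Odc1, a long-known Myc target, stood at -0.22 by its brightest probe (adjusted p = 0.523), with its other probes at -1.13 (adjusted p = 0.043, past the threshold) and -0.50 (adjusted p = 0.239).

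Of 15 genes known to be repressed by Myc, 0 rose, 4 fell and 11 did not pass by limma, with a median of -0.22. At an unadjusted p under 0.05, 1 was higher and 6 lower, against 6285 of all 16377 named genes in either direction. Cebpa, a differentiation factor, fell by 0.84 (SE 0.150, adjusted p = 0.00877), Gas1, a growth arrest gene, by 0.85 (adjusted p = 0.00933), and Cdkn1b, the cell cycle inhibitor p27, by 0.71 (adjusted p = 0.0144). Another Gas1 probe passed in the opposite direction, at 0.57 (adjusted p = 0.0411), and a further one stood at -0.30, so the count for Gas1 rests on the choice of the brightest probe. Pdgfrb, a receptor of pericytes and fibroblasts, differed by -0.66 (adjusted p = 0.0376). The summed level of 6 fibroblast markers was 8.15 to 8.71 in control and 8.15 to 8.50 in PRH-labelled tumours, with 1 marker of the 6 lower, and its part was not tested. Cdkn1a, the p21 inhibitor, stood at 0.16 (adjusted p = 0.492), with another probe at 0.71 (adjusted p = 0.162). Both the activated and the repressed list thus had more falls than rises, as did all named genes by their brightest probe, with 13.1% lower and 10.7% higher.

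Around Mlx, the Mondo genes Mlxip and Mlxipl differed by -0.22 and -0.31 by their brightest probes and did not pass. Another Mlxip probe was higher, at 0.98 (adjusted p = 0.0133). Mga, a large Max partner that represses, fell by 0.66 (SE 0.135, adjusted p = 0.0126) and was the 1 call among 3 network partners. Of 5 genes that Mondo and Mlx are known to activate, 1 fell, Txnip, an inhibitor of glucose uptake, from 3.37 ± 0.21 to 2.45 ± 0.28 (SD, n = 4 each), a fall of 0.92 (SE 0.184, adjusted p = 0.0117). Its other probe stood at 0.01. Arrdc4, its close relative, differed by -0.12 (adjusted p = 0.569), and Klf10 by -0.21 (adjusted p = 0.357). The remaining genes of this list stood higher without passing. Pklr was at 3.04 (adjusted p = 0.111), well above background on 5 of 8 arrays, and G6pc at 1.04 (adjusted p = 0.461). At an unadjusted p under 0.05, 1 gene of the list was higher and 1 lower, against 6285 of all 16377 named genes in either direction. Both Mga and Txnip held in all 5 scalings and all 8 fits without 1 array.

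**Figure D4:**
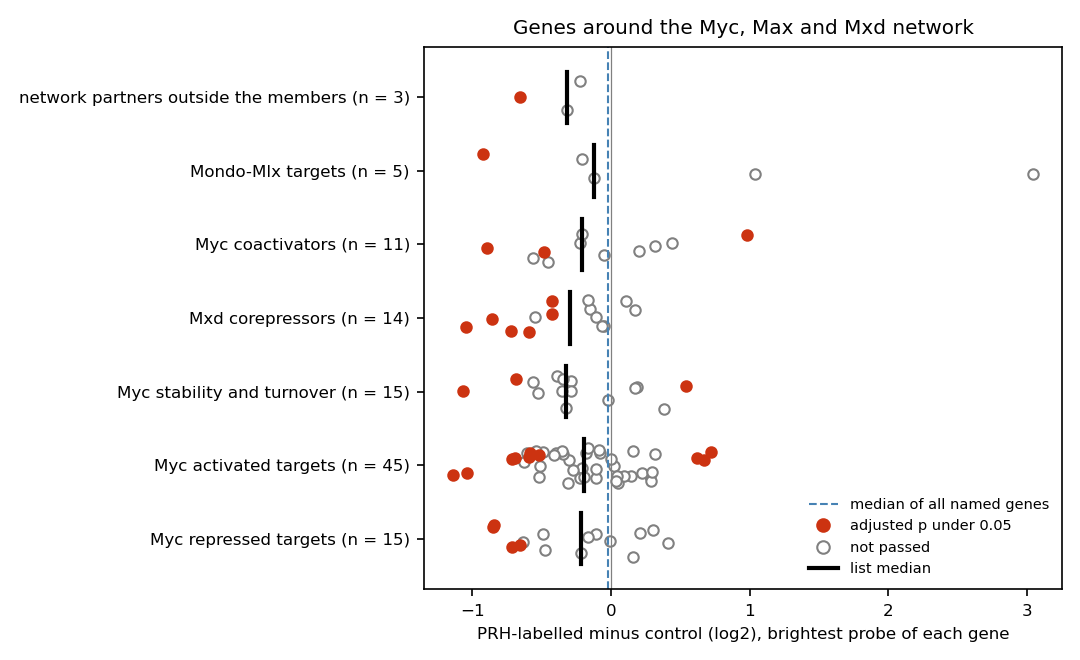
Difference between PRH-labelled and control tumours (log2) of each tested gene in 7 lists around the network, by its brightest probe, with filled points where the limma adjusted p was under 0.05. Black bars mark the list medians and the dashed line the median of all named genes, and each list median lies to the left of that line. The line is not matched to the brightness of the list genes.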

How the data were processed

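The deposited scanner files hold spot intensities, which per the file headers came from Agilent Feature Extraction 10.7.3.1 on a design placed on mm9; the submitters' processing notes name version 9.1. All 8 arrays came from 1 slide and 1 scan. A table of normalized intensities made by the authors, by a method not given in the sources used here beyond R, served as an alternative. The processed signal was put on the log2 scale and each array's 75th percentile over non-control spots was subtracted. Control spots were dropped, spots of a probe were averaged without outlier flags, and 39463 of 55681 probes passed a minimum of 4 arrays well above background. Control arrays had 64.17% to 69.76% of their probes at that level and PRH-labelled arrays 72.22% to 73.9%, without overlap. The part of this in the differences was not tested. An array had 0 saturated probes, and 4 arrays a group limit the precision. Probes were named through RefSeq accessions and a RefSeq table of GRCm38.p6, which matched 26582 probes. Mlx was taken by its symbol, not as an older synonym of Mlxipl.

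The group difference was fitted by lmFit and eBayes of limma 3.58.1 (R 4.3.3), with two-sided tests and no covariate, and checked on simulated data. Of 100 probes changed there by 1 log2 unit 17% were recovered, and of 100 changed by 2 units 53%, with 1 false call. With so few probes changed, these shares need not hold for the arrays. A member that did not pass is therefore not read as unchanged. Deviations of same-numbered arrays from their group means correlated at 0.2, 0.422, 0.651 and 0.257 for mouse numbers 1, 2, 3 and 5. All were above 0.1, so a fit with the mouse number as a block was run beside the main fit. Same-numbered arrays also share the second number of an array's place on the slide, and the 2 cannot be told apart. Correlations of differently numbered arrays are not given, so a pairing by mouse is not shown. Alternatives were other scalings, normexp with an offset of 50, filters, probes and leaving out arrays. Normexp used the median signal, as no mean signal was in the files. Named are all members, Hhex, the called genes of each list (up to 4 in each direction by p), the 5 genes most like Myc and the 2 brightest markers of the cell types described. Krt14, Cdk1, Sap18, Ing2, Ncl, Nop58, Ppat and the list genes that did not pass were named after their values were seen. The values of 1 called list gene are not reported here. The members and lists were chosen with earlier results of these data known.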

Additional observations from a re-analysis of the deposited data

Results flagged for a closer look

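Of 122 groups of 4 values checked, 9 had a tumour whose distance from its nearest neighbour exceeded Dixon's 95% limit for 4 samples. Chance alone flags about 1 in 20 groups. Members and their differences on the same array gave none. For Sin3a control 1 was at 0.23, against 0.92 to 1.02 in the other controls, and for Hdac2 it was at -2.49, against -1.65 to -1.5. PRH-labelled tumour 1 was low for Ing2, at -3.31 against -2.81 to -2.72, for Nop58, at 2.72 against 3.02 to 3.08, and for Pdgfrb, at 0.78 against 1.18 to 1.26. PRH-labelled tumour 3 was low for Ncor1, at 1.58 against 1.80 to 1.84. Among summed marker levels, control 1 had 4.44 for B cells, against -1.61 to -1.15 in the other controls. Control 5 had 8.59 for epithelium, against 8.24 to 8.28, and PRH-labelled tumour 5 had 3.06 for adipocytes, against 2.62 to 2.69.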

How the results depend on the processing

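Calls depended on the scaling. The main counts were 6354 probes higher and 3973 lower, 2 and 2 member probes, and 5 and 23 list genes. Median centring gave 3118 and 9859, 0 and 5, and 1 and 55. Quantile normalization gave 6224 lower probes and 1 higher member. Normexp gave 9720 higher probes and 1 higher member. The authors' values gave 3989 higher probes and 0 higher members. Centring on 7 spike-in probes gave 0 and 3 probes, 0 and 0 members, and 0 and 0 list genes by limma, against 5041 and 2982, 1 and 1, and 2 and 11 at an unadjusted p under 0.05. At that unadjusted p higher members numbered 0 after median centring and 1 in the authors' values. Over all probes 4328 and 6157 were higher. The median difference of all probes was 0.22 as reported. Median centring moved it to -0.25 and normexp to 0.28, and it was 0.01 for quantile normalization and 0.02 for the authors' values. Mnt turned to -0.00087 after median centring, with the cause not tested. No filter on dim probes gave 1 higher member and 12 lower list genes, with more probes tested. Mnt (adjusted p = 0.0607) and Mlx (adjusted p = 0.0585) lost their calls there, and the count of 2 lower members then included Mycl1, which was not well above background on any of the arrays. Testing only probes above background on all 8 arrays gave 1 higher member, since Mxi1 was not tested, and the brightest probe of each gene alone gave 1 lower member, since the called Mxd1 probe is the dimmer one. Myc minus Mxd1 moved by 0.67 with the other Mxd1 probe, also added after seeing the data. Taking the percentile over probes, chosen after seeing the data, gave 1 higher member.

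The pairing by mouse number as a replicate block gave 9775 higher probes, 1 higher member and 1 lower. The calls of Mnt and Mlx were lost, those of Mxi1 and of Mxd1 held, and no other member probe gained a call. Without single arrays, all probes ran from 4477 to 7189 higher and from 2055 to 6166 lower, members from 0 to 2 higher and from 1 to 2 lower, and list genes from 3 to 6 higher and from 8 to 35 lower, with the highest lower counts without control 1 and the lowest without control 5. Signal over background limits Mycl1, Mycn and Mxi1.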

Other observations

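The E-box CACGTG was in the promoter window of 9 of the 36 Myc-activated genes that had a window and in 0 of the 11 Myc-repressed genes that had one, against 8.09% of all 27025 genes with a window. The lists were drawn up from what is known of Myc, so this describes the lists and not the tumours.

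The adipocyte sum of control 1 was 5.47, against 1.70 to 3.65 on the other 7 arrays. Control 3 had a neutrophil sum of 2.49, against 5.03 to 7.11 elsewhere. Of the fits without 1 array, Mnt and Mlx passed only in that without control 1. Neither passed without control 3 (adjusted p = 0.0803 and 0.0831), as in every other such fit.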
